A study of Mus musculus with 8 samples.

Results

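Transcripts of 10 cyclic nucleotide phosphodiesterase genes were examined in mpkCCD collecting duct cells. The genes were Pde4a, Pde4b, Pde4c, Pde4d, Pde7a, Pde8a, Pde3a, Pde3b, Pde1a and Pde10a, chosen by symbol among the 55414 genes of the deposited TPM table and joined by Ensembl identifier to the expected counts. All 10 were found. Cells received tolvaptan, an antagonist of the vasopressin V2 receptor, plus dDAVP, a vasopressin analogue that activates that receptor (4 libraries), or dDAVP alone (4 libraries). Both groups thus carried dDAVP, and cells without dDAVP were not part of the comparison. The labels name the mpkCCD line and no subclone. Per the study's methods it is a mouse line from cortical collecting ducts of SV-PK/Tag transgenic animals, in which a viral large T antigen is driven by a pyruvate kinase promoter, and the cells used were 1 recloned subclone. Those methods were taken to describe these libraries because cells, groups and tools match. The study cites a different deposit for its sequencing data, so this match is an assumption. The labels give neither dose nor duration of exposure; those that the study's text states are not repeated here. They also do not say that replicate libraries were separate cultures, and the p-values here cover the variation among replicate libraries, part or all of which may be technical.

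Phosphodiesterases hydrolyse cAMP and cGMP, and so end the signals that these nucleotides carry. In collecting duct principal cells, vasopressin acts through the V2 receptor, Gs and adenylyl cyclase to raise cAMP, which activates protein kinase A and brings aquaporin-2 to the apical membrane, and phosphodiesterases set how far and how long cAMP rises. The families differ in substrate and control. PDE4, PDE7 and PDE8 enzymes are specific for cAMP, PDE3 enzymes hydrolyse cAMP and are inhibited by cGMP, PDE1 enzymes are stimulated by calcium and calmodulin, and PDE10A hydrolyses both nucleotides. The comparison asked which of these transcripts the cells held, in what proportions, and whether the V2 receptor antagonist changed them.

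Total expected counts per library ranged between 41179670 and 49720488 with tolvaptan plus dDAVP and between 46189118 and 56203831 with dDAVP alone. Tolvaptan replicate 1 stood apart from the other tolvaptan libraries, with a chi-square per degree of freedom of 30.7 to 41.8 against them, compared with 8.21 to 18.6 among the other 3. Principal cell markers were present, led by Aqp2 at 9439 ± 1014 TPM with tolvaptan and 8947 ± 871 TPM with dDAVP alone (SD, n = 4 each), and edgeR called 0 of the 9 tested of 12 listed, with 0 at an unadjusted p under 0.05, and DESeq2 called 0. Elf5, Tfap2b and Kcnj1, also listed for principal cells, fell below the count filter. Of the intercalated cell markers, 5 of 6 stayed below 1 TPM in every library, as did 4 of 5 for the proximal tubule and 4 of 4 for the loop and distal tubule. The exceptions were the intercalated cell marker Aqp6, with a mean of 4.4 TPM over all libraries, and the proximal tubule marker Lrp2, at 9.30 TPM. Of the tested principal cell markers, Aqp3 was at 4.91 TPM and Scnn1b at 0.81 TPM.

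The members share a catalytic domain whose metal-binding centre is coded by a short and conserved stretch. This stretch is shown for the 6 members with measurable transcripts, because it shows how far reads of one gene could be taken for those of another. Each line gives 45 bases of the coding exon, 5′ to 3′ on the coding strand, in which 21 bases precede and 9 follow the 15 bases of the histidine and aspartate motif. Capitals mark bases unlike Pde4b, and coordinates are those of GENCODE M21 on GRCm38.
Pde4b, chr4:102599673-102599717, plus strand: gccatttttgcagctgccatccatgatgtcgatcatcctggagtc
Pde4d, chr13:109939292-109939336, plus strand: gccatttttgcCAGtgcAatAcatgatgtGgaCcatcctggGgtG
Pde4a, chr9:21204354-21204398, plus strand: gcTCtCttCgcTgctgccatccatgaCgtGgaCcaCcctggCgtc
Pde4c, chr8:70748087-70748131, plus strand: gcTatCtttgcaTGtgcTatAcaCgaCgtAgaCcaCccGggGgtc
Pde7a, chr3:19233727-19233771, minus strand: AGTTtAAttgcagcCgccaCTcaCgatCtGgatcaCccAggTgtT
Pde10a, chr17:8967428-8967472, plus strand: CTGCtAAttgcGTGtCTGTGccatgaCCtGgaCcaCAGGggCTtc

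Within this window Pde4d differed from Pde4b at 9 bases, Pde4a at 10, Pde4c at 13, Pde7a at 16 and Pde10a at 24. The longest identical run between coding sequences of any pair of members was 32 bases, between Pde4b and Pde4d, followed by 29 bases between Pde4a and Pde4b. No 50-base stretch of any member transcript occurred in another member. Shared 50-base stretches with other genes made up 5.64% of Pde3a, most of them with the antisense gene Gm28523, and 1.01% of Pde4c. Pde4a, Pde4b, Pde4d and Pde10a shared none. All 80 expected counts of the members, 10 genes in 8 libraries, were whole numbers within 0.005, which held in every library for 71.2% of the 14772 tested genes.

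Pde7a was the most abundant of the phosphodiesterase transcripts, followed by Pde4b and Pde4c, and these 3 genes held 95.7% ± 0.382 of the summed member TPM with tolvaptan and 95.5% ± 0.25 with dDAVP alone (SD, n = 4 each). Averaged over the 8 libraries, the level was 157 TPM for Pde7a, 58.1 TPM for Pde4b, 53.2 TPM for Pde4c, 7.02 TPM for Pde4a, 3.69 TPM for Pde4d and 1.54 TPM for Pde10a. TPM is corrected for transcript length, so that these levels can be set side by side. The 4 other genes were near 0, at 0.0463 TPM for Pde1a, 0.0288 TPM for Pde8a, 0.0175 TPM for Pde3a and 0.0138 TPM for Pde3b. Pde7a ranked 1502 among all genes by mean TPM, and the 10 members made up 98.7% ± 0.157 (tolvaptan) and 98.6% ± 0.134 (dDAVP alone) of the TPM of all 23 cyclic nucleotide phosphodiesterase genes listed.

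**Figure D1:**
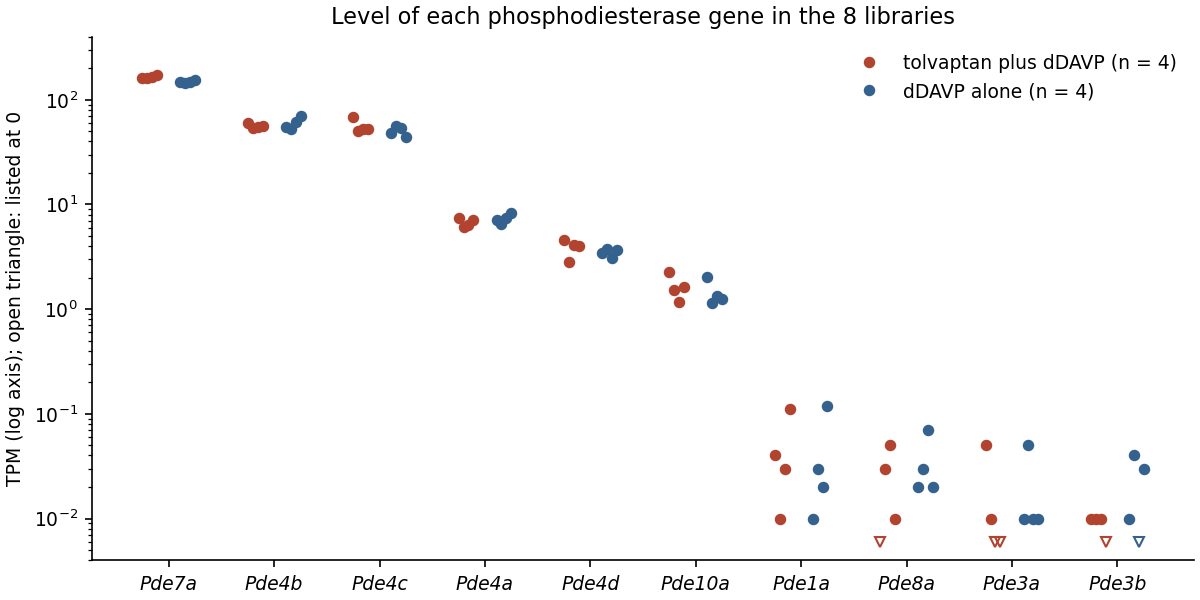
TPM (log axis) of each member in the 4 tolvaptan plus dDAVP libraries (red, left) and the 4 dDAVP alone libraries (blue, right), ordered by mean TPM; each point is 1 library and an open triangle is a value listed at 0. Pde7a lay above 146 TPM in every library, and Pde1a, Pde8a, Pde3a and Pde3b at or below 0.12 TPM.

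Neighbours in this order were compared within libraries by an exact two-sided sign-flip permutation test, adjusted over the 9 pairs. The order and its pairs came from the TPM values that were then tested, so the p-values are no independent support for the order. Pde7a exceeded Pde4b in 8 of 8 libraries, with a ratio of mean TPM of 2.70 (exact p = 0.00781, the smallest 8 libraries can give; adjusted p = 0.0141). The same p and the same 8 of 8 libraries were found for Pde4c over Pde4a (ratio 7.58), Pde4a over Pde4d (1.91), Pde4d over Pde10a (2.39) and Pde10a over Pde1a (33.4). The order of Pde4b and Pde4c was not resolved: Pde4b was higher in 6 of 8 libraries, by 0.13 ± 0.26 in log2(TPM + 0.1) (SD, n = 8; exact p = 0.18, adjusted p = 0.27). Nor was it resolved among Pde1a, Pde8a, Pde3a and Pde3b, with adjusted exact p between 0.452 and 0.75. The 8 libraries include both groups, and 4 libraries of a single group cannot give an exact p below 0.125.

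The lowest members rested on few reads. Pde1a, Pde8a, Pde3a and Pde3b had between 0 and 7 counts per library and did not pass the filter of 10 counts in at least 4 libraries, so they were left out of the test and no fold change is given for them. Pde1a, the calmodulin-stimulated isoform, had 4, 1, 2 and 6 counts with tolvaptan against 2, 1, 2 and 2 with dDAVP alone. Pde8a, a cAMP-specific isoform of high affinity, had 0, 3, 5 and 1 counts with tolvaptan against 2, 3, 7 and 2 with dDAVP alone. Pde3a had 4, 4, 1 and 0 counts with tolvaptan and 5, 4, 4 and 2 with dDAVP alone, and Pde3b had 1, 1, 2 and 0 counts with tolvaptan and 2, 3, 0 and 2 with dDAVP alone. For each of these 4 genes the groups overlapped in TPM. A count of 0 allows up to 3 counts, or 0.0603 to 0.0729 CPM in the tolvaptan libraries and 0.0534 to 0.065 CPM in the dDAVP libraries, which covers counting error only. Among 2002 olfactory and vomeronasal receptor genes, which kidney cells mostly do not use, 40.5% had a mean TPM at or above that of Pde3b, 30.4% at or above Pde3a, 11.8% at or above Pde8a and 3.5% at or above Pde1a. None reached Pde4d or Pde10a. Gm28523 overlaps 741 of the 12737 exonic bases of Pde3a on the opposite strand, and reads from those bases cannot be assigned to one of them.

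With tolvaptan, edgeR's quasi-likelihood test called 0 of the 6 tested members at an adjusted p under 0.05, where it called 0.399% of the 14772 genes tested (0.183% higher and 0.217% lower). At an unadjusted p under 0.05 it was 1 of 6, Pde7a, against 11.2% of all tested genes. DESeq2 called 1 member, again Pde7a, where it called 2.28% of all genes (1.35% higher). edgeR without a filter called 0 members and 0.672% of genes, and limma on log2(TPM + 1) called 0 members and 0.149% of genes. The median log2 fold change of the 6 was 0.12, with 4 above and 2 below 0, and that of all tested genes was -0.0048. In these bulk libraries fewer cells with a transcript and less transcript per cell cannot be told apart.

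**Figure D2:**
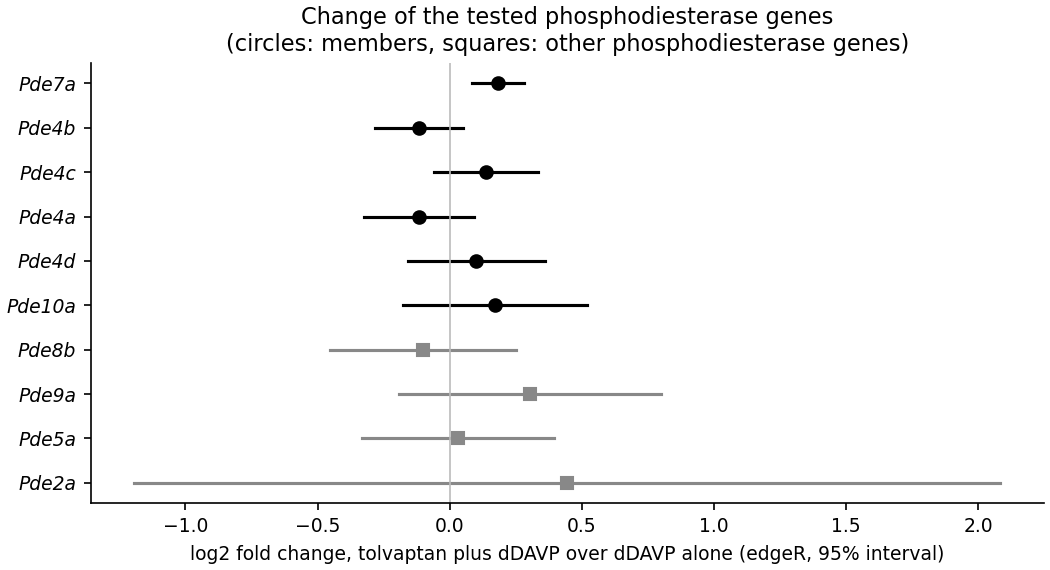
log2 fold change of tolvaptan plus dDAVP over dDAVP alone from edgeR (points) with 95% intervals (lines) for the 6 tested members (black circles) and the 4 tested other phosphodiesterase genes (grey squares). Only the interval of Pde7a, 0.08 to 0.28, lies clear of 0, and these intervals are not adjusted for the number of genes.

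Pde7a (ENSMUSG00000069094) encodes a cAMP-specific phosphodiesterase that is not blocked by the PDE4 inhibitor rolipram. It had 161, 160.0, 167 and 171 TPM with tolvaptan plus dDAVP, against 148, 146, 149 and 153 TPM with dDAVP alone. Every tolvaptan library was above every dDAVP library, both in TPM and in log2 CPM. In log2 CPM this held for 1 of the 6 tested members and for 3.99% of all tested genes in this direction (7.76% in either). The means were 165 ± 4.88 TPM with tolvaptan and 149 ± 3.11 TPM with dDAVP alone (SD, n = 4 each). The coefficients of variation, 2.96% with tolvaptan and 2.08% with dDAVP alone, were the smallest of the 10 members in either group. By edgeR the log2 fold change was 0.18 with a standard error of 0.05, a 1.14-fold difference (95% interval 1.06 to 1.22), with an unadjusted p of 0.00179 and an adjusted p of 0.13. It did not pass the threshold. Pde7a ranked 202 among all tested genes by p.

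The adjusted p of Pde7a was 0.0243 by DESeq2, with a log2 fold change of 0.18 and a standard error of 0.052. Over 17 alternatives its log2 fold change stayed between 0.14 and 0.20 and its adjusted p between 0.0243 and 0.322, below 0.05 in DESeq2 only. Without tolvaptan replicate 1 the log2 fold change was 0.16. The counts per TPM of Pde7a, relative to the median gene of a library, reflect the effective length that RSEM gave the gene; they were 1.64, 1.50, 1.48 and 1.43 with tolvaptan and 1.47, 1.44, 1.47 and 1.47 with dDAVP alone, highest in tolvaptan replicate 1. On TPM the log2 fold change was 0.14 by limma, where it was 0.18 on counts. The antisense gene Gm16093 overlaps 48 of the 7748 exonic bases of Pde7a on the opposite strand, and reads from those bases cannot be assigned to one of them. The summed TPM of the 7 stroma, endothelium and leukocyte markers did not overlap between groups. No background share was computed for such sums, and 7.76% of single tested genes did not overlap in log2 CPM. The marker sum was 6.07 to 7.53 TPM with tolvaptan and 4.60 to 5.85 TPM with dDAVP alone. That sum was mostly the lysosomal gene Cd68, at 6.46 ± 0.542 TPM with tolvaptan against 4.91 ± 0.589 TPM with dDAVP alone (SD, n = 4 each; edgeR adjusted p = 0.25), while the 6 others, among them Ptprc, Pecam1 and Col1a1, stayed below 1 TPM in every library.

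**Figure D3:**
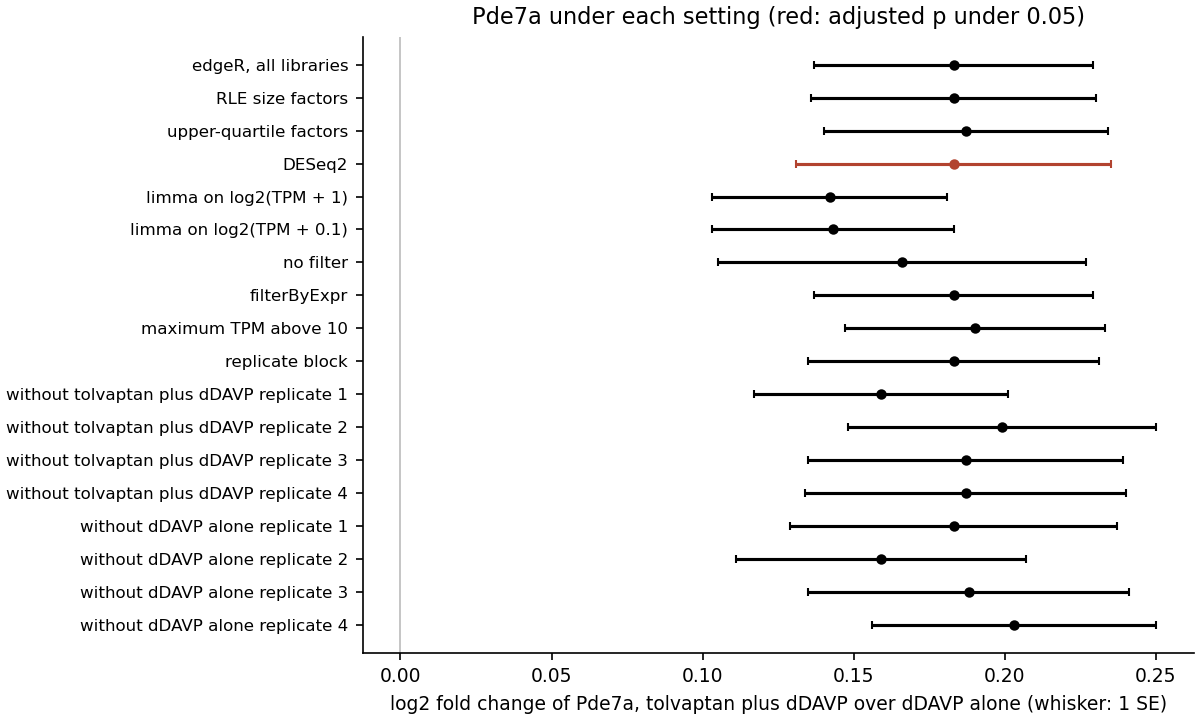
log2 fold change of Pde7a, tolvaptan plus dDAVP over dDAVP alone, under each setting of the analysis (points, with whiskers of 1 SE); red marks an adjusted p under 0.05. The estimate lay between 0.14 and 0.20 in all 17 alternatives, and DESeq2 was the setting with an adjusted p under 0.05.

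The PDE4 genes code the cAMP-specific, rolipram-sensitive enzymes. Pde4b (ENSMUSG00000028525) had 60.6, 53.9, 55.0 and 55.8 TPM with tolvaptan, against 55.5, 52.5, 60.8 and 70.4 TPM with dDAVP alone. The groups overlapped, and dDAVP replicate 4 was the highest of the 8. The means were 56.3 ± 2.96 TPM with tolvaptan and 59.8 ± 7.87 TPM with dDAVP alone, and the log2 fold change was -0.11 with a standard error of 0.08 (edgeR adjusted p = 0.636), or a fold of 0.924 with a 95% interval of 0.823 to 1.04. Without dDAVP replicate 4 the log2 fold change was -0.03, and without dDAVP replicate 2 it was -0.17.

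Pde4c (ENSMUSG00000031842) had 68.6, 50.3, 52.4 and 52.9 TPM with tolvaptan, against 48.2, 55.7, 53.6 and 43.9 TPM with dDAVP alone. The groups overlapped, and tolvaptan replicate 1 lay apart from all others. The log2 fold change was 0.14 with a standard error of 0.09 (edgeR adjusted p = 0.626), a fold of 1.10 with a 95% interval of 0.96 to 1.26, and it was 0.04 without tolvaptan replicate 1 and 0.09 without dDAVP replicate 4. The ratio of Pde4b to Pde4c TPM was 0.884, 1.07, 1.05 and 1.06 with tolvaptan and 1.15, 0.943, 1.13 and 1.61 with dDAVP alone. Which of the 2 was the higher thus differed between libraries of the same group.

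Pde4a (ENSMUSG00000032177) and Pde4d (ENSMUSG00000021699) were the lower PDE4 isoforms. Pde4a had 7.40, 6.10, 6.37 and 7.08 TPM with tolvaptan and 7.11, 6.56, 7.35 and 8.21 TPM with dDAVP alone, a fold of 0.923 (95% interval 0.799 to 1.07; edgeR adjusted p = 0.708). Pde4d had 4.58, 2.81, 4.09 and 4.01 TPM with tolvaptan and 3.46, 3.77, 3.06 and 3.70 TPM with dDAVP alone, a fold of 1.07 (95% interval 0.896 to 1.28; edgeR adjusted p = 0.805). The log2 fold change of Pde4a was -0.11, and it was -0.06 without tolvaptan replicate 2 or dDAVP replicate 4. That of Pde4d was 0.10, and it was 0.18 without tolvaptan replicate 2 and 0.06 without tolvaptan replicate 3, tolvaptan replicate 4 or dDAVP replicate 3. Both genes overlapped between groups, and Pde4d rested on 185 or more counts per library. Summed, the 4 PDE4 genes came to 123 ± 12.4 TPM with tolvaptan and 121 ± 5.58 TPM with dDAVP alone (SD, n = 4 each), and the ranges, 113 to 141 TPM with tolvaptan and 114 to 126 TPM with dDAVP alone, overlapped. Tolvaptan replicate 1 had 141 TPM of this sum and the other tolvaptan libraries 113, 118 and 119.8 TPM. The intervals of the 4 genes show which changes these libraries leave possible, and they do not show that the transcripts were equal.

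**Figure D4:**
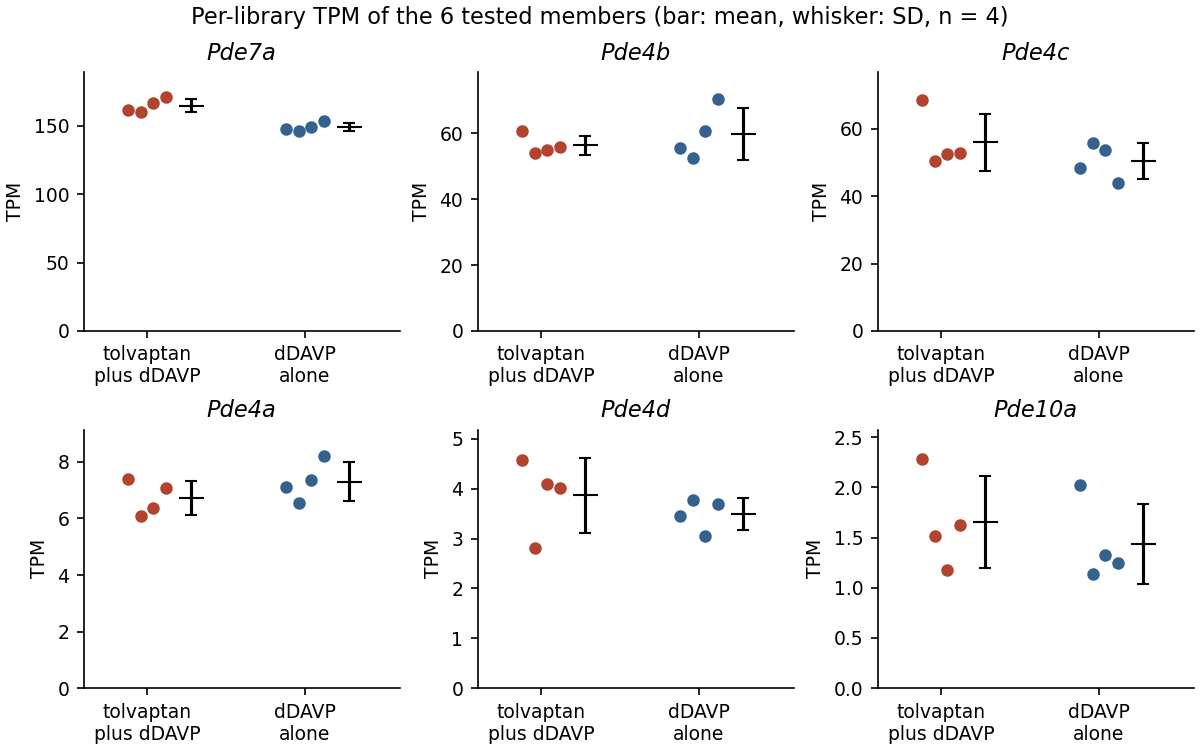
TPM of the 6 tested members in each library (points; tolvaptan plus dDAVP in red at the left, dDAVP alone in blue at the right), with the mean (bar) and SD (whisker) of the 4 libraries of each group; each axis starts at 0. The groups were separate for Pde7a, and overlapped for the 5 others.

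Pde10a (ENSMUSG00000023868), the isoform that hydrolyses both nucleotides and is best known from the striatum, was the lowest member with measurable transcripts. It had 2.28, 1.52, 1.18 and 1.63 TPM with tolvaptan and 2.02, 1.14, 1.33 and 1.25 TPM with dDAVP alone, from 114 to 194 counts per library. The groups overlapped, and the fold was 1.13 (95% interval 0.885 to 1.43; edgeR adjusted p = 0.741). The log2 fold change of 0.17 was 0.11 when tolvaptan replicate 1, tolvaptan replicate 4 or dDAVP replicate 4 was left out. Leaving out dDAVP replicate 2 gave 0.10, and leaving out dDAVP replicate 1 gave 0.27. Its counts per TPM varied 1.43-fold between libraries and those of Pde4d 1.31-fold, compared with 1.05- to 1.07-fold for Pde4a, Pde4b and Pde4c. Whether libraries differed in the transcript forms of Pde10a or Pde4d was not tested.

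Shares of the summed member TPM give the proportions of the isoforms in each library. Pde7a held 52.9%, 58.2%, 58.3% and 58.4% with tolvaptan, against 56.0%, 55.0%, 54.1% and 54.6% with dDAVP alone. In 3 tolvaptan libraries the share was above all dDAVP libraries, and in tolvaptan replicate 1 it was below all of them. In summed expected counts, which are not corrected for length, the share of Pde7a was 61.3% ± 1.15 with tolvaptan and 58.4% ± 0.715 with dDAVP alone. The PDE4 genes together held 42.4% ± 2.57 of the TPM with tolvaptan and 44.5% ± 0.9 with dDAVP alone, with tolvaptan replicate 1 at 46.3% and the other tolvaptan libraries at 41.0% to 41.3%. Pde4b held 19.5% ± 0.349 with tolvaptan and 22.0% ± 2.27 with dDAVP alone. Pde4c held 19.3% ± 2.12 with tolvaptan and 18.6% ± 2.26 with dDAVP alone (SD, n = 4 each), with tolvaptan replicate 1 at 22.5% and the other tolvaptan libraries at 18.1% to 18.3%. The sum of the 10 members was 289 ± 12.7 TPM with tolvaptan and 272 ± 7.96 TPM with dDAVP alone, with overlapping ranges and with tolvaptan replicate 1 the highest at 305 TPM. These shares are descriptions without a test.

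**Figure D5:**
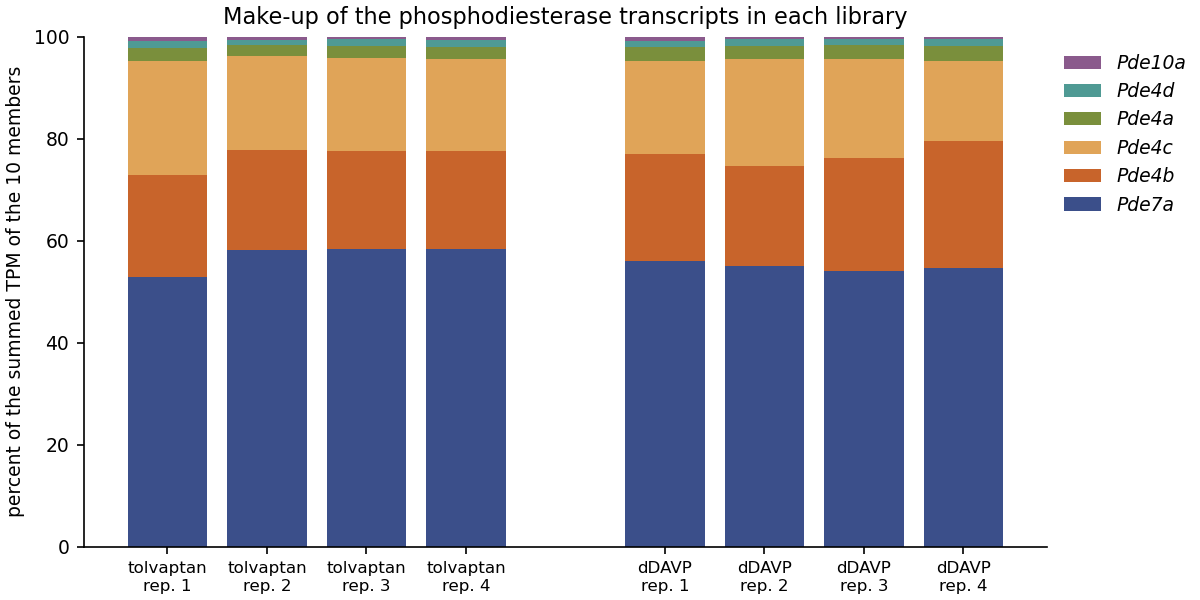
Percent of the summed TPM of the 10 members held by each of the 6 tested members (stacked, from Pde7a at the bottom) in the 4 tolvaptan plus dDAVP libraries (left) and the 4 dDAVP alone libraries (right). Pde7a held between 52.9% and 58.4% of the sum in every library.

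CREB, which protein kinase A phosphorylates, binds the cAMP response element TGACGTCA and its half-site TGACG. The 250 bases upstream of each RefSeq start site (GRCm38) were searched for both, on both strands, for the 7 of 10 members matched in the RefSeq table, with 16 start sites; Pde3a, Pde3b and Pde7a were not matched. The full element occurred in 0 of the 16 windows and in 1.55% of all 32851 windows. The half-site occurred in 4 of the 16 and in 17.8% of all windows, in 1 start site each of Pde4b, Pde4a, Pde8a and Pde1a. The sites of the 2 PDE4 genes are shown because these genes had measurable transcripts, with the half-site, read on the opposite strand as CGTCA, in capitals.
Pde4b, chr4:102421504-102421542, plus strand: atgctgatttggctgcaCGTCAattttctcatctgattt
Pde4a, chr9:21184034-21184072, plus strand: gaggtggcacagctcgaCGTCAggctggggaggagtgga
These are matches of letters only, and binding was not measured. The half-site lay 34 to 30 bases upstream of start site 1 of 4 of Pde4b and 50 to 46 bases upstream of start site 2 of 3 of Pde4a, numbered from the most upstream. Which start sites these cells used was not tested. The full element contains the half-site, so the searches overlap.

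Of the 13 other cyclic nucleotide phosphodiesterase genes, 4 passed the count filter, and edgeR called 0, with 0 at an unadjusted p under 0.05. DESeq2 and every other alternative also called 0. Their summed TPM was 3.50 to 4.20 with tolvaptan and 3.71 to 4.37 with dDAVP alone, about the level of Pde4d. Pde8b, like Pde8a a cAMP-specific isoform, had 1.39 ± 0.24 TPM with tolvaptan and 1.71 ± 0.0802 TPM with dDAVP alone (SD, n = 4 each), a log2 fold change of -0.10 on counts (edgeR adjusted p = 0.865). On TPM it was -0.18 by limma on log2(TPM + 1) and -0.29 on log2(TPM + 0.1), and the counts per TPM of Pde8b varied 1.59-fold between libraries. Unlike Pde8a, Pde8b was detected in every library, with 69.7 to 117 expected counts. Pde9a, a cGMP-specific isoform, had a log2 fold change of 0.30 (edgeR adjusted p = 0.671), and of 0.19 without tolvaptan replicate 3. Of the 8 genes that make or respond to cGMP, 4 were tested and edgeR and DESeq2 called 0, with 0 at an unadjusted p under 0.05 in edgeR.

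The genes that make, sense and anchor cAMP around the members were present. Of 46 genes listed, 35 were tested and edgeR called 0, against 0.399% of all tested genes. At an unadjusted p under 0.05 there were 5, against 11.2% of all tested genes in either direction. Each of the 5 had a log2 fold change above 0. The median log2 fold change of the 35 was -0.013, with 17 above and 18 below 0. DESeq2 called 1, against 2.28% of all genes. Avpr2, the V2 receptor itself, had 322 ± 37.8 TPM with tolvaptan and 319 ± 31.8 TPM with dDAVP alone (SD, n = 4 each; log2 fold change -0.01, edgeR adjusted p = 0.972). Of the genes for regulatory subunits of protein kinase A, Prkar1a had 375 ± 4.53 TPM with tolvaptan and 382 ± 3.82 TPM with dDAVP alone, and Prkar2b 78.3 ± 1.86 TPM with tolvaptan and 84.1 ± 1.61 TPM with dDAVP alone. Of those for catalytic subunits, Prkaca had 141 ± 6.66 TPM with tolvaptan and 141 ± 4.93 TPM with dDAVP alone, and Prkacb 38.0 ± 1.44 TPM with tolvaptan and 35.1 ± 1.29 TPM with dDAVP alone. By edgeR the log2 fold change was -0.03 for Prkar1a (adjusted p = 0.822) and -0.07 for Prkar2b (adjusted p = 0.656). It was -0.01 for Prkaca (adjusted p = 0.952) and 0.10 for Prkacb (adjusted p = 0.471). In log2 CPM the groups overlapped for each of these subunit genes. In TPM the groups overlapped for Prkaca and Prkacb but not for Prkar1a and Prkar2b. The share of all genes without overlap in TPM was not computed. Rapgef3, which codes the cAMP sensor Epac1, had 71.7 ± 5.93 TPM with tolvaptan and 70.6 ± 2.86 TPM with dDAVP alone. On this scale Pde7a lay above Prkaca, and Pde4b and Pde4c lay between Rapgef3 and Prkacb in mean TPM. The 5 genes with an unadjusted p under 0.05, chosen here after their values were seen, were Akap12, Adcy3, Crem, Adcy5 and Arrb1. Averaged over the 8 libraries, Adcy5 was near 0, at 0.0575 TPM and 1 to 23 counts per library. Arrb1 was at 0.481 TPM, Adcy3 at 0.765 TPM and Crem at 26.3 TPM. The edgeR adjusted p was 0.379 for Adcy5, 0.385 for Arrb1, 0.282 for Adcy3 and 0.354 for Crem. Akap12, an anchoring protein for protein kinase A, had a log2 fold change of 0.31 (edgeR adjusted p = 0.155), or 0.22 without tolvaptan replicate 1, and it was the gene that DESeq2 called (adjusted p = 0.0343).

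The pattern of Pde7a over the 8 libraries was set beside that of 9313 tested genes with a symbol and a maximum TPM above 10 by the root mean square difference of centred log2 CPM. The closest were Spata5 at 0.0221, Pisd at 0.0241, Slf2 at 0.0259, Zfp35 at 0.0264 and Bid at 0.0296, where the median gene was at 0.136 and the spread of Pde7a itself was 0.102. Their log2 fold changes were 0.20, 0.16, 0.17, 0.19 and 0.21, in the same order, and none passed the threshold (edgeR adjusted p between 0.0864 and 0.238). Likeness over 8 libraries includes the difference between groups that Pde7a itself showed.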

How the data were processed

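RNA-seq was performed in 8 mpkCCD libraries, 4 per group, with groups and replicate numbers taken from the sample titles. Per the labels, the kits were SMARTer for cDNA and Nextera XT for libraries, which leave strand unmarked, and reads were paired-end. STAR and RSEM are the tools in the submitters' processing notes, with versions not given in the sources used here. An Ensembl annotation is named in the methods of the study. Those methods describe the same cells, groups and tools, and on that ground they were taken to apply to these libraries. This remains an assumption, because the study cites a different deposit for its data. The authors deposited unnormalized RSEM expected counts per gene. The authors' deposited TPM values are divided by effective gene length and add up to the same total in each library. Other deposited tables hold the authors' own DESeq2 comparison and term enrichment, and neither was used.

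Expected counts were rounded to the nearest whole number. The main test was the two-sided quasi-likelihood F test of edgeR 4.0.16 (R 4.3.3) with TMM factors and no covariate, on genes with at least 10 counts in 4 or more libraries. P-values were adjusted by Benjamini-Hochberg over all genes tested, with 0.05 as threshold. DESeq2 1.42.0, the tool of the study, was an alternative. The fold change and F statistic gave the standard error, and intervals are 95% intervals for a single gene. Levels of neighbouring members were compared within libraries on log2(TPM + 0.1) by an exact two-sided sign-flip permutation test (SciPy 1.17.1, Python 3.11.15). Groups were said not to overlap when no log2 CPM value (prior count of 2) of one group lay within the range of the other. Replicate libraries differed by more than sampling noise, with a chi-square per degree of freedom of 8.11 or more for each pair.

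As alternatives, normalization was by RLE or upper-quartile factors, the test was DESeq2 or limma 3.58.1 with a trend on log2(TPM + 1) or log2(TPM + 0.1), and the filter was none, filterByExpr or a maximum TPM above 10. Further alternatives were a block for the replicate number and the omission of each library in turn. The fits were checked on simulated counts with known changes. The members and all gene lists were chosen with earlier results of these data known. All 10 members were named; of the other phosphodiesterase genes, those with a mean TPM of 1 or more; of the cAMP pathway list, the called genes and the 6 receptor, cyclase, PKA and Epac genes with the highest mean TPM; and, for the tested member with the smallest p, the 5 tested genes with a symbol and a maximum TPM above 10 closest to it in library-centred log2 CPM. Outside this rule, the cAMP pathway genes with an unadjusted edgeR p under 0.05 were also named. So were Pde2a and Pde5a, which were tested but had a mean TPM below 1, and markers of cell types. Sequences were read from GENCODE M21 transcripts and the RefSeq promoter table (Biopython 1.88), both on GRCm38. The deposited tables rest on another annotation, and no deposited value was placed by these coordinates.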

Additional observations from a re-analysis of the deposited data

Results flagged for a closer look

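Levels of the members and Pde8b, and a sum, share and ratio of members, were looked at in 28 groups of 4 libraries. In 5 groups, 1 library had a gap to its nearest neighbour above Dixon's 95% critical value, as a fraction of the range. Chance gives about 1 in 20 for independent groups, and these were not all independent. Of the 5 libraries so found, 3 were tolvaptan replicate 1, and the Pde4c level enters each of them. Its Pde4c level was 68.57 TPM, with the nearest library at 52.85 TPM. Its share of Pde7a in the summed member TPM was 52.94%, with the nearest at 58.24%, and its ratio of Pde4b to Pde4c TPM was 0.8838, with the nearest at 1.049. The others rest on a handful of counts: Pde3a was at 0.05 TPM in dDAVP replicate 2, with the nearest at 0.01 TPM, and Pde3b was listed at 0.0 TPM in tolvaptan replicate 4, with the 3 others at 0.01 TPM.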

How the results depend on the processing

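Each of the 6 tested members kept its direction in every alternative run. DESeq2 called 1 member higher, Pde7a (log2 fold change 0.183), and every other alternative called 0 members. Over all genes, where 27 were called higher and 32 lower, DESeq2 called 199 and 138, edgeR without a filter 128 and 128, limma on log2(TPM + 1) 3 and 19 and limma on log2(TPM + 0.1) 8 and 20; leaving out 1 library gave 3 to 36 and 15 to 46. In the cAMP pathway list, DESeq2 and the fit without a filter each called 1 gene higher, Akap12 (0.307 and 0.290). Signs changed for Pde2a in both limma fits (-0.041 and -0.209) and Avpr2 in both (0.012), and, on leaving out single libraries, Pde5a (range -0.073 to 0.189), Pde8b (-0.167 to 0.036) and Avpr2 (-0.068 to 0.044); the cause was not tested. The first 6 places in the order of levels were the same in all 13 alternatives, and Pde3a and Pde3b changed places in 3. The order was set by mean or median TPM, so the log2(TPM + 1) and log2(TPM + 0.01) alternatives among the 13 could not change it. With the replicate number as a block, 3 genes were called higher and 14 lower, and Pde7a had a log2 fold change of 0.183 (edgeR adjusted p = 0.244). Same-numbered libraries had correlations of deviations of -0.228, 0.109, 0.344 and -0.214, so the numbers were not taken as pairs; only replicates 2 and 3 correlated best with their own number. Depth limits Pde1a, Pde8a, Pde3a and Pde3b, which were fitted only without a filter and were not called there.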
